A study of Sus scrofa with 6 samples.

Results

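Of the 6 small RNA libraries of the series, 2 are described here, W1 from weaned piglets and S1 from piglets that were still suckling, both sampled on day 1. Members were the sequences with at least 50 reads in W1 and S1 together, counted once each, and 229 of 533 sequences in the series met this minimum. All piglets were Duroc x Yorkshire x Landrace crosses, labelled as barrows, and the tissue of every library was jejunum, taken as cross-sections of the whole wall. W1 piglets were separated from the sow at 25 d of age, given a commercial pig diet and sampled 1 d later. S1 piglets were 26 d old and had stayed with their sows. The paper states that the litters were also offered a pre-starter feed, and that each litter gave piglets to both the weaned and the suckling group. Total RNA of 4 piglets was pooled in equal parts into each library, with 1 piglet per litter stated for W1. Each condition was thus 1 pool. No difference between W1 and S1 has a replicate check, no test was possible, and every interval given is a 95% counting interval only, which leaves out the spread between piglets and between library preparations. Reads copied by PCR without molecular identifiers are not independent molecules, so even counting error may be larger than given.

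MicroRNAs are short RNAs cut from hairpin precursors, and each hairpin can release a 5p and a 3p strand. A miRNA pairs with target mRNAs mainly through its seed, the bases from position 2 to position 8, so miRNAs with one seed can share targets. In the small intestine miR-192, miR-194 and miR-215 are abundant in the epithelium, miR-143 and miR-145 mark smooth muscle and other stromal cells, and miR-142, miR-150 and miR-155 mark cells of the immune system. Weaning is a time of villus shortening and of change in gut immune cells in pigs.

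Sequences that carried large differences at day 1 are shown in the 5′ to 3′ direction with the seed in capitals. The first set holds miR-99, miR-100 and miR-125, shown because they had the highest ratios among known miRNAs with over 1000 reads, and the let-7 miRNAs encoded beside them.
miR-100: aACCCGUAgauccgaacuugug
miR-99a: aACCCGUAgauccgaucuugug
miR-99b: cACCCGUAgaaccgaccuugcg
miR-125a: uCCCUGAGacccuuuaaccugug
miR-125b: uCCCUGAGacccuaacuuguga
let-7a: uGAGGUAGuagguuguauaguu
let-7c: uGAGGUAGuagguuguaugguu
let-7e: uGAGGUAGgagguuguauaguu

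Candidates are sequences that the study predicted from hairpins and that had no pig name. Their names begin with the chromosome of the draft genome (SSC1 is chromosome 1). SSCX_18747, the candidate with the most reads, is shown beside the known miRNA that has the same seed.
SSCX_18747: cCUGGACUugaagucagaaggc
miR-378: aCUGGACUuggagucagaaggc

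The lowest ratios belonged to the next 4 candidates, and 3 of them are short and rich in G and C.
SSC10_132: gGCGGGCCcacgggggccc
SSC14_2736: cGCGGGCGcacgggggccc
SSC18_5778/SSC18_5981: cUGGACGCgagccgggcu
SSC1_7989: uCUGUCAUuucuguaggcuau

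A closely related pair of candidates is shown because its members had no common direction. SSC1_6467 fell under the minimum of 50 reads.
SSC13_1737: uGUAGCUGuggcauagaccucag
SSC1_6467: uGUGGUUGuggcauagaccucag

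The other sequences past 2-fold that the text turns on are the following.
SSC6_13802: uGUGUGUGggcgccggacgcc
SSCM_18120: aUGGAAUGcuuguuuugguug
miR-221-5p: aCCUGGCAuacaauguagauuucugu
miR-204: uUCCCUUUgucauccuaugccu
miR-150: uCUCCCAAcccuuguaccagug
miR-122: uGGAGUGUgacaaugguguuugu
miR-138: aGCUGGUGuugugaaucaggc
miR-144: uACAGUAUagaugauguac
miR-1285: cUGGGCAAcauagcgagaccccgu

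The total count was 4492667 in S1 and 4649143 in W1, within the range of 4441416 to 5373146 over the 6 libraries. S1 held reads of 451 sequences and W1 of 447, with 406 in common. The 45 sequences read only in S1 had 163 reads in all, and the 41 read only in W1 had 80 reads, at most 7 for any of them. The 229 members held 99.97% of the reads in each library. Known miRNAs made up 195 of them and candidates 34.

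The same few miRNAs filled both libraries. miR-192 took 35.3% of the reads in S1 and 30.3% in W1. miR-215, which belongs to the same seed family, took 19.9% and 15.6%. miR-143-3p took 16.5% and 19.97%. Together these 3 sequences held 71.6% of the reads in S1 and 65.8% in W1, so the shares of nearly all other sequences depend on them. miR-10a-5p (2.23% and 3.35%) and miR-10b (1.99% and 3.06%), which lie in the HOX gene clusters, were next in pair reads. They were followed by miR-21, miR-148a-3p, miR-27b-3p, miR-194b-5p and miR-30a-5p. Of the 10 most read sequences of each library, 9 were common to both. miR-192 and miR-215 differ at C1A and C20A, counted from the 5′ end of miR-192, and reads of one may have been counted for the other.

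Levels are given as reads, or as CPM, which is reads scaled to a library total of 1000000. The ratio of W1 to S1 is given on a log2 scale, where 1 is a 2-fold higher level in W1 and -1 a 2-fold lower one. The median log2 ratio of the 229 members was 0.28 on library totals, with 175 (76.4%) above 0 and 54 below. TMM scaling, which takes its factor from the bulk of the sequences, lowered every log2 ratio by 0.31 and put the median at -0.030, with 106 members (46.3%) above 0. Counts of a group's members above 0 are to be read against these shares, and counts past 2-fold against the shares given for all members. The counting interval lay wholly above 0 for 122 members and wholly below for 25 on library totals, and for 50 and 77 with TMM. How many members stood above 0 therefore depended on the scaling, and ratios are read here against the median.

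Past 2-fold, the sequences were few. On library totals 14 of 229 (6.11%) were at least 2-fold higher in W1 and 6 (2.62%) at least 2-fold lower. With TMM 6 (2.62%) were higher and 9 (3.93%) lower. Of the 13 known names past 2-fold on either scale, 7 (miR-122, miR-138, miR-144, miR-210, miR-328, miR-671-3p and miR-1285) had no aligned reads to check and rest on equal counts alone, as does miR-221-5p. The 14 higher were 10 known miRNAs and 4 candidates, and the 6 lower were 2 known miRNAs and 4 candidates. The 6 that were higher with TMM were all among the 14, and the 6 lower on library totals were all among the 9. Both follow from TMM lowering every log2 ratio by the same amount, so they are no separate result. For 4 of the 14 and 4 of the 6 the whole counting interval lay past 2-fold on library totals. The plot of W1 against S1 shows how close most sequences lay to the line of equal levels.

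**Figure D1:**
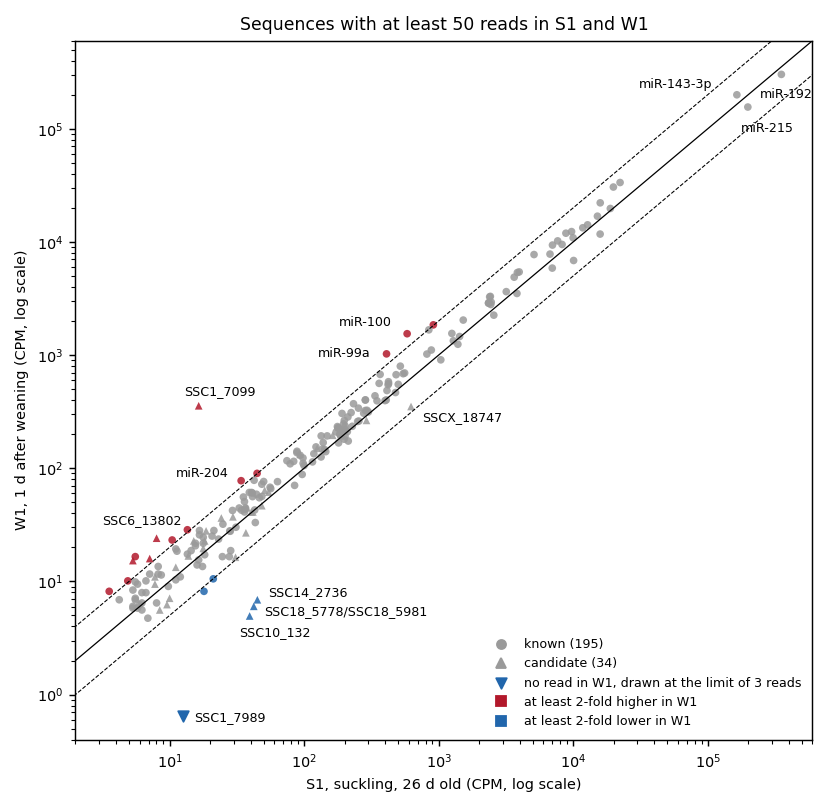
CPM in S1 (x axis) and in W1 (y axis), both on log scales, for the 229 sequences with at least 50 reads in the pair, with the line of equal levels (solid) and of 2-fold differences (dashed). Known miRNAs are circles and candidates triangles, and the 14 higher and 6 lower sequences on library totals are coloured. SSC1_7099 stands far above the line and 4 candidates far below it.

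Precision followed the number of reads. Among 31 members with 50 to 99 reads, 3 were at least 2-fold higher and 1 lower, and the median width of the counting interval was 1.504 on the log2 scale. Among 84 with 100 to 999 reads, 7 were higher and 5 lower, with a width of 0.72. Among 73 with 1000 to 9999 reads, 3 were higher and none lower, with a width of 0.25. Of the 41 with 10000 reads or more, 1 was higher, miR-99b, and none lower, and the width was 0.048. Just above the minimum stood miR-129a (19 reads in S1 and 32 in W1), miR-136 (24 and 27) and miR-324 (24 and 28). Just below it stood SSCX_18665 (23 and 25), miR-205 (14 and 34) and SSC13_2521 (17 and 30).

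The miR-99, miR-100 and miR-125 group had the highest ratios among known miRNAs with many reads. The miR-99 and miR-100 miRNAs are known regulators of the kinase MTOR, and miR-125 is the vertebrate form of the worm miRNA lin-4. miR-100 had 2621 reads in S1 and 7184 in W1 (583 and 1545 CPM). Its level was 2.65-fold higher in W1 (2.53 to 2.77). miR-99a, which differs from miR-100 at U16A counted from the 5′ end of miR-99a, had 1842 and 4767 reads and was 2.50-fold higher (2.37 to 2.64). These 2 sequences stayed past 2-fold with TMM, at log2 ratios of 1.09 and 1.01. miR-99b had 4105 and 8603 reads and was 2.03-fold higher (1.95 to 2.10), but its log2 ratio with TMM was 0.71. miR-125a had 3800 and 7769 reads and miR-125b 1651 and 3140, at log2 ratios of 0.98 and 0.88. All 5 members stood above 0 under both scalings, and the median was 1.02, against 0.28 for all members. On library totals 3 were at least 2-fold higher (6.11% of all members) and with TMM 2 (2.62% of all members).

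Added up, the sequences with the miR-99 and miR-100 seed ACCCGUA had 8568 reads in S1 and 20554 in W1, a log2 ratio of 1.21 on library totals and 0.90 with TMM. Those with the miR-125 seed CCCUGAG had 5451 and 10909 reads, a log2 ratio of 0.95 and 0.64. miR-100 and miR-99a differ by a single base, and a read counted at both names would stand in the sum more than once.

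The other libraries place these levels. In S1 miR-100 and miR-99a were at the lowest level of the 6 libraries, and in W1 at the highest. miR-100 was at 583 CPM in S1, 941 in S4 and 628 in S7, and at 1545 in W1, 1330 in W4 and 610 in W7. For miR-99b S1 (914 CPM) was above W7 (848 CPM), and W1 (1850 CPM) was just below W4 (1879 CPM). Set against S4 or S7 in place of S1, the log2 ratio of W1 was 0.72 and 1.30 for miR-100, 0.66 and 1.22 for miR-99a, and 0.44 and 0.95 for miR-99b. W1 stood above each suckling pool for all 3, and by less than 2-fold against S4.

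The let-7 miRNAs, which restrain growth genes, had lower ratios than the group above. Genes of let-7a, let-7c and let-7e lie beside that group, and let-7f lies with miR-98. let-7a had 34467 reads in S1 and 47499 in W1, let-7f 31536 and 43627, and let-7c 17288 and 24946. Their log2 ratios were 0.41, 0.42 and 0.48. Of 9 measured sequences of the let-7 and miR-98 list 8 were above 0, none passed 2-fold, and the median was 0.40 on library totals and 0.09 with TMM. In the RefSeq annotation MIR99A lies next to MIRLET7C, MIR100 next to MIRLET7A-1, and MIR99B and MIR125A with MIRLET7E. In each of these 3 places the let-7 member had the lower ratio, with counting intervals that did not meet. miR-99a stood at 1.32 (1.24 to 1.40) and let-7c at 0.48 (0.45 to 0.51). miR-99b and miR-125a stood at 1.02 and 0.98 and let-7e at 0.42 (0.39 to 0.45). let-7a and miR-125b are each encoded at more than 1 place, so their reads cannot be assigned to 1 of them.

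Among all 30 groups of neighbouring miRNA genes, set apart by at most 10 kb in RefSeq, the members spanned more than 1 on the log2 scale in 3. The widest span was that of miR-221 and miR-222 (1.52), followed by the miR-17-92 cluster (1.203) and by miR-545 with miR-374a (1.00). The ends of this last span are miR-545-3p, with 31 and 22 reads, at -0.54 (-1.40 to 0.29) and miR-374a-5p at 0.46 (0.27 to 0.65). Their counting intervals overlap. Members of the other 27 groups lay within 1 of each other. In the miR-17-92 cluster, a group of miRNAs linked to cell proliferation, miR-92a was at 0.60 (22993 and 35969 reads) and miR-18a at 0.57. There miR-19a and miR-19b were at -0.02 and -0.03 and miR-17-3p at -0.61 (128 and 87 reads). The genes of miR-92a and miR-19b in this cluster are numbered copies, so reads of these 2 miRNAs may also come from elsewhere. The ends of the spans of miR-221 with miR-222 and of miR-17-92 are set by miR-221-5p and miR-17-3p, whose names did not pass the check against aligned reads. That check used a shortened list of reads for each precursor. A strand with no reads in the list fails it even where its name is right.

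**Figure D2:**
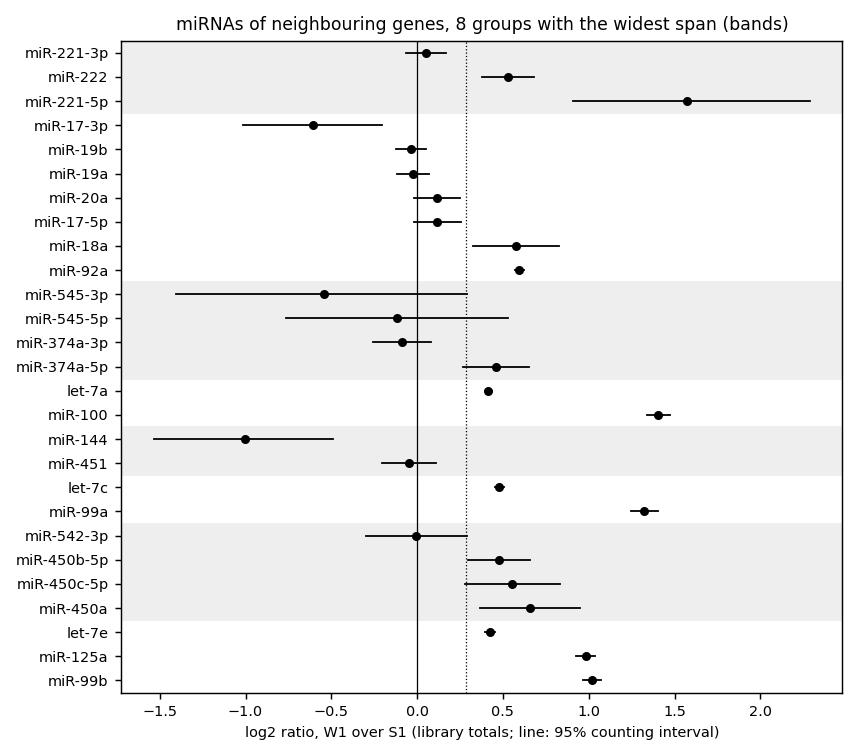
Log2 ratio of W1 to S1 on library totals (x axis) with its 95% counting interval, for the 8 groups of neighbouring miRNA genes with the widest span, each group in 1 band. The dotted line is the median of all 229 sequences, 0.28. In the bands of miR-100, miR-99a and miR-99b the let-7 member lies nearest to the dotted line.

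Markers of the epithelium had lower ratios than the bulk. miR-192 had 1585132 reads in S1 and 1406416 in W1, a log2 ratio of -0.22. miR-215 had 893067 and 723689 reads (-0.35). miR-194a had 45270 and 31877 reads (-0.56, interval -0.58 to -0.53) and miR-194b-5p 71281 and 54560 (-0.44, interval -0.45 to -0.42). miR-429, an epithelial miRNA of the miR-200 family, had 6433 and 6787 reads and stood at 0.03. Of the 6 measured sequences 5 were below 0 and none passed 2-fold, and the median was -0.29 on library totals and -0.60 with TMM. The list held 57.9% of the reads in S1 and 47.8% in W1. In bulk jejunum, fewer cells of a type and less of its miRNA per cell cannot be told apart. The list holds 10 names, and for 5 of them, the other miR-200 family members and miR-375, no sequence was named, so they were not analysed here. miR-182 and miR-183, from an epithelial and sensory cluster, were at -0.12 and 0.14.

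Markers of muscle had the same median as all members on library totals, and markers of stroma varied among themselves. miR-143-3p, with 740104 reads in S1 and 928489 in W1, and miR-145-5p, with 5635 and 7224, stood at 0.28 and 0.31. Of 8 muscle sequences all were above 0, 2 were above 0 with TMM, and the median was 0.28, the same as for all members. miR-133a-3p and miR-133b, which mark striated muscle and are also found in gut muscle, were at 0.04 and 0.02. The share of reads held by the muscle list was 16.7% in S1 and 20.2% in W1, nearly all of it miR-143-3p. Mesenchymal miR-199 and miR-214 gave a median of 0.30 over 5 sequences. Of these, miR-199a-5p (860 and 1418 reads) and miR-199b-5p (1623 and 2616) stood higher, at 0.67 (0.55 to 0.80) and 0.64 (0.55 to 0.73), and the 3p strands, which share reads, at 0.29 and 0.30. The endothelial miR-126 gave 0.45 for the 5p arm (17841 and 25256 reads) and 0.47 for the 3p arm (2170 and 3120).

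Markers of immune cells stood mostly above the median of all members, with miR-150 alone past 2-fold. miR-150, a miRNA of mature lymphocytes, had 201 reads in S1 and 419 in W1 (44.7 and 90.1 CPM). It was 2.01-fold higher (1.70 to 2.40), and its log2 ratio with TMM was 0.70. miR-155-5p, a miRNA of activated lymphocytes and macrophages, had 191 and 364 reads and stood at 0.88 (0.62 to 1.14). miR-342 stood at 0.58 (183 and 284 reads). miR-142-5p, the most read leukocyte miRNA, had 10969 and 13012 reads and stood at 0.20. All 6 leukocyte sequences were above 0 (76.4% of all members), 1 was at least 2-fold higher (6.11% of all members), and the median was 0.47 on library totals. With TMM 5 of the 6 were above 0, none was past 2-fold, and the median was 0.16. The leukocyte list includes miR-223, which had no named sequence and was not analysed here. miR-150 was lower in S1 than in any other library (44.7 CPM, against 55.5 in S4 and 70.7 in S7), and W4 and W7 (131.7 and 129 CPM) were above W1.

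The miRNAs induced in inflammation gave a median of 0.47 over 8 sequences, 1 of which was at least 2-fold higher (6.11% of all members). That sequence was miR-221-5p, the minor strand of its precursor, with 25 reads in S1 and 77 in W1 (5.56 and 16.6 CPM). It was 2.98-fold higher (1.87 to 4.88) and stayed past 2-fold with TMM, at 1.26. Its sequence shared no run of 15 bases with the aligned reads listed for its precursor, so the name rests on equal counts alone. The list was shortened, so this does not show the name to be wrong. Its partner strand miR-221-3p had 1124 and 1205 reads and stood at 0.05. miR-222, which has the seed of miR-221-3p and acts with it on the cell-cycle inhibitor CDKN1B, had 602 and 898 reads and stood at 0.53. miR-146b had 397 and 639 reads (0.64), miR-146a-5p 807 and 1053 (0.33) and miR-21 84885 and 91838 (0.06). miR-155-5p and miR-146a-5p are in both the leukocyte and the inflammation list. Of the 8 sequences, miR-21 and miR-221-3p stood below the median of all members, and 6 of the 8 were above 0 with TMM.

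Markers of red blood cells gave no common direction. miR-144 had 95 reads in S1 and 49 in W1 (21.2 and 10.5 CPM) and was 2.01-fold lower in W1 (1.41 to 2.89). miR-451, transcribed with miR-144, had 651 and 652 reads and stood at -0.05 (-0.21 to 0.11). miR-486 had 1282 and 1506 reads and stood at 0.18. miR-144 was lower in W1 than in any of the other 5 libraries, which lay between 15.1 and 25.8 CPM.

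Neuronal and liver markers were read sparsely. miR-138 had 61 reads in S1 and 133 in W1 and was 2.11-fold higher (1.54 to 2.90). miR-128, the most read neuronal miRNA, had 551 and 718 reads and stood at 0.33, and miR-153 had 36 and 30 and stood at -0.31 (-1.06 to 0.43). Of 8 neuronal sequences 7 were above 0, close to the share of all members, and 1 was at least 2-fold higher (6.11% of all members). The median was 0.45. With TMM 6 of the 8 were above 0, none was past 2-fold, and the median was 0.14. miR-122, the main miRNA of hepatocytes, had 47 and 108 reads and was 2.22-fold higher (1.56 to 3.20), at 10.5 CPM in S1 and 23.2 CPM in W1, and S4, W4, S7 and W7 spanned 10.9 to 20.1 CPM. miR-138 and miR-122 stood at 0.76 and 0.84 with TMM, so neither was past 2-fold there.

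miR-204 and miR-1285 stood apart from the bulk without belonging to a group of cell markers. miR-204, a miRNA best known from the eye and from pancreatic islets, had 153 reads in S1 and 361 in W1 (34.1 and 77.6 CPM). It was 2.28-fold higher (1.88 to 2.77), and 0.88 on the log2 scale with TMM. The 3 suckling pools held 34.1 to 53.0 CPM of it and the 3 weaned pools 77.6 to 84.2, with 1 pool at each time. This order, every weaned pool above every suckling pool, was not particular to miR-204. On library totals miR-92a (suckling 5118 to 5137 CPM, weaned 7737 to 8813 CPM), miR-26a, miR-150 and miR-378 had it too. W1 by itself was above each suckling pool for 55.9% of all members. The share of all members with the full order was not counted, so the order is not read as a trait of miR-204. miR-1285 had 81 reads in S1 and 38 in W1 (18.03 and 8.17 CPM) and was 2.21-fold lower (1.48 to 3.33). Its level in S1 was the highest of the 6 libraries, and W1 lay inside the range of the other 4, 5.96 to 12.7 CPM.

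Several families kept close to the bulk. The log2 ratios of the 8 miR-30 sequences ran from 0.12 to 0.41, with miR-30a-5p at 57493 and 65837 reads, and those of the 4 miR-181 sequences from 0.14 to 0.31, with miR-181a at 30227 and 36305. The miR-23 and miR-27 list ran from 0.16 to 0.38 over 5 sequences and miR-29, which targets collagen mRNAs, from 0.27 to 0.46 over 3. miR-10b (89429 and 142106 reads) and miR-10a-5p (100276 and 155791) lay above the median at 0.62 and 0.59. The miR-148 and miR-152 list had a median of 0.42 over 5 sequences, with miR-148a-3p at 0.48. The miR-424 and miR-450 list, clustered on the X chromosome in mammals, had a median of 0.48 over 5.

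Below the median stood the miR-15 and miR-16 family, which restrains the cell cycle, with miR-16 at -0.19 (11552 and 10481 reads) and a median of -0.11 over 5 sequences. With them stood miR-103 (6247 and 5797 reads, -0.16) and miR-107 (4664 and 4222, -0.19), which share a seed. The 3 sequences of miR-130 and miR-301 gave a median of 0.03. No sequence of the families in these last 2 groups or of the miR-30, miR-181, miR-23, miR-27, miR-29, miR-10, miR-148 and miR-424 lists passed 2-fold under either scaling. From the imprinted DLK1-DIO3 region 12 sequences were named and 2 had enough reads, miR-127 (2333 and 3712, 0.62) and miR-136 (24 and 27, 0.12), whose name did not pass the check against aligned reads. The X-linked miR-532, miR-500 and miR-362 gave 0.22, 0.47 and 0.01.

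**Figure D3:**
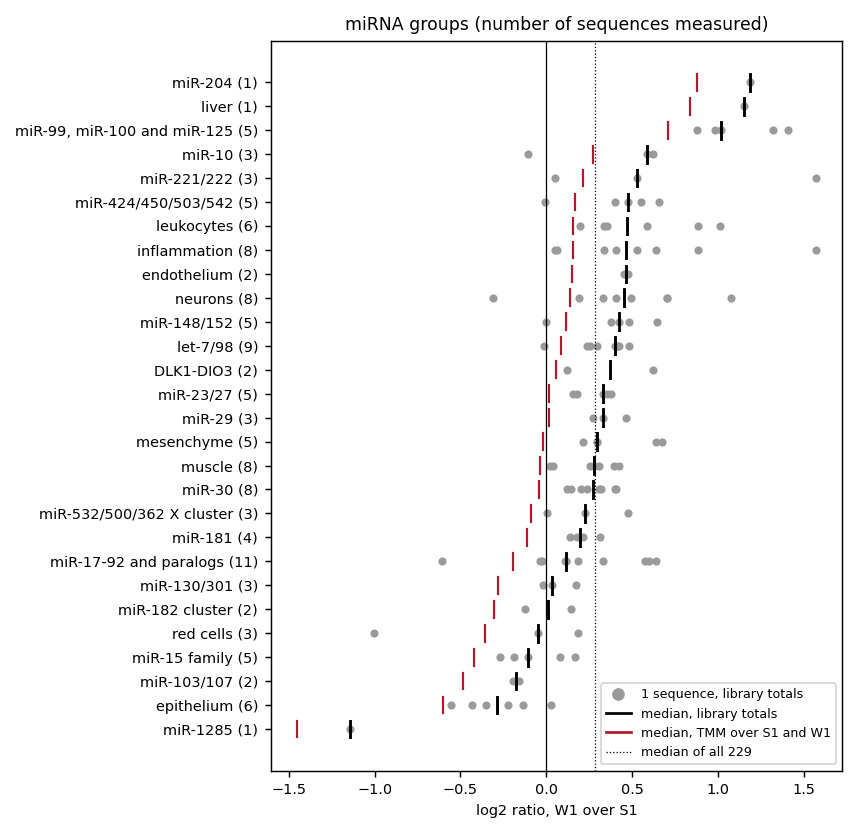
Log2 ratio of W1 to S1 (x axis) for each measured sequence of 28 groups of miRNAs (points, library totals), with the median of the group on library totals (black bar) and with TMM (red bar). The dotted line is the median of all 229 sequences, 0.28. The miR-100 and miR-125 group has its black bar at 1.02 and the epithelium at -0.29.

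The 121 known sequences in the groups above left 74 known miRNAs in no group. Of these 74, 2 were at least 2-fold higher on library totals and none lower, against 6.11% and 2.62% of all members. The 2 higher were miR-671-3p (16 and 38 reads, 2.30-fold, 1.25 to 4.41) and miR-328 (22 and 47 reads, 2.06-fold, 1.22 to 3.60). Both lost this with TMM, at 0.89 and 0.73. miR-210, a miRNA induced by low oxygen, had 125 and 77 reads and stood at -0.75 (-1.18 to -0.33), past 2-fold only with TMM (-1.06). The other members of the 74 ran from -0.58 (miR-874) to 0.83 (miR-1343), and their median was 0.30 with these 3 included. The sequence listed under miR-24-2-3p carried counts nearly equal to those of miR-24-1-3p, so no value of miR-24 alone is given.

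Candidates held 9743 reads in S1 and 10586 in W1, which is 0.217% and 0.228% of the libraries, and most had few reads. Of the 34 measured, 6 had more than 1000 reads in the pair, 21 were above 0 and 13 below, and 8 had the seed of a known miRNA among the members. Their median log2 ratio was 0.26. Candidates were 34 of the 229 members and made up 4 of the 14 higher and 4 of the 6 lower sequences on library totals. Of all members 6.11% were higher and 2.62% lower.

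SSC1_7099 had the highest ratio of all 229, with 74 reads in S1 and 1657 in W1 (16.5 and 356 CPM). It was 21.6-fold higher (17.1 to 27.7), and 4.12 on the log2 scale with TMM. The 4 other libraries held 929 to 1796 reads of it (175 to 402 CPM), so S1 alone was low and W1 was inside their range. Against S4 the log2 ratio of W1 was 1.03 and against S7 0.28.

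SSC6_13802 had 36 reads in S1 and 112 in W1 and was 3.01-fold higher (2.05 to 4.51). The weaned pools of days 4 and 7 held 250 and 262 reads of it and the suckling pools 54 and 71. SSCM_18120, placed on the mitochondrial genome by its name, had 24 and 71 reads and was 2.86-fold higher (1.78 to 4.75). It had 354 reads in W4, 104 in W7, 60 in S4 and 51 in S7. Both candidates stayed past 2-fold with TMM, at 1.28 and 1.203, and each had S1 as its lowest library.

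SSC13_1737 had 32 reads in S1 and 74 in W1 and was 2.23-fold higher (log2 ratio 1.16, interval 0.54 to 1.81), and 0.85 on the log2 scale with TMM. Its suckling pools held 32, 31 and 27 reads and its weaned pools 74, 105 and 97. Other members, such as miR-92a and miR-26a, also had every weaned pool above every suckling pool on library totals. The share of all members with this order was not counted, and S1 below W1 was part of the choice. SSC13_1737 was the only one of the 14 at least 2-fold higher in W1 against each of S1, S4 and S7. SSC1_6467, which differs from SSC13_1737 at A4G and C6U counted from the 5′ end of SSC13_1737, was read 35 times in S1 and not in W1. Against the limit that a count of 0 allows, 3 reads or 0.645 CPM, and with the 35 reads taken as exact, it was at least 12.1-fold lower in W1, and the 95% counting interval reached down to 9.31-fold. It had 9 reads in S4, 100 in W4 and none in S7 and W7, with no common order of weaned and suckling pools.

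Of the 4 lower candidates, 3 were rich in G and C, and SSC1_7989 was not (38.1% GC). SSC10_132 had 177 reads in S1 and 23 in W1 (39.4 and 4.95 CPM) and was 7.96-fold lower (5.14 to 12.9). SSC14_2736 had 202 and 32 reads (45.0 and 6.88 CPM) and was 6.53-fold lower (4.48 to 9.81). SSC18_5778/SSC18_5981, a sequence listed under a pair of candidate names, had 190 and 28 reads (42.3 and 6.02 CPM) and was 7.02-fold lower (4.71 to 10.8). SSC10_132 and SSC14_2736 differ at C1G and G8C, counted from the 5′ end of SSC14_2736, and both are 94.7% G or C over 19 bases. SSC18_5778/SSC18_5981 is 77.8% G or C over 18 bases. In all 3 S1 was the highest of the 6 libraries and S4 the next, while S7, at 7.07, 7.07 and 5.96 CPM, was close to W1. Against S7 the log2 ratio of W1 was -0.52, -0.04 and 0.02.

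GC content ran from 31.6% to 94.7% over the 6 lower sequences. The median GC content was 45.8% over all members, 51.1% over the 14 higher and 70.1% over the 6 lower. Of 6 members with at least 75% GC, 3 were these lower candidates, while 2.62% of all members were lower. The other 3 were SSC6_13802 (76.2% GC, higher), miR-1343 (77.3% GC, log2 ratio 0.83) and miR-874 (78.3% GC, -0.58). Of all members 6.11% were higher. The correlation of GC content with the log2 ratio was weak, at Pearson r = -0.12 and Spearman rho = 0.098 across all 229 members and 0.17 and 0.20 across the 195 known ones. These points share both libraries, and genes are not replicates. Whether base composition had a part in the ratios was not tested.

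SSC1_7989 was read 57 times in S1 and not in W1. Against the limit of 3 reads, and with the 57 reads taken as exact, it was at least 19.7-fold lower in W1, or 24.4-fold with TMM. The 95% counting interval, which also covers the error of the reads in S1, reached down to 15.5-fold. The study's table of candidates gives it the seed of the mouse miRNA miR-215-3p. It had 100 reads in S4, 6 in W4, none in S7 and 8 in W7, so it was read mainly in 2 of the 3 suckling pools. The ratio of W1 to S7 has both libraries near or at 0 and is not given.

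With TMM 3 more sequences were at least 2-fold lower, miR-210 and the candidates SSCX_18747 and SSC2_9365. SSCX_18747, the candidate with the most reads, had 2802 reads in S1 and 1633 in W1 (624 and 351 CPM), a log2 ratio of -0.83 (-0.92 to -0.74) on library totals and -1.14 with TMM. It has the seed of miR-378, a miRNA of energy metabolism, and differs from it at A1C and G11A, counted from the 5′ end of miR-378. miR-378 had 10762 and 15191 reads and stood at 0.45, so the counting intervals of this pair lay on opposite sides of 0. SSCX_18747 was at 234 and 313 CPM in S4 and S7 and at 622 and 599 in W4 and W7, the opposite order to day 1. SSC2_9365 had 139 and 76 reads and stood at -0.92 (-1.34 to -0.51), and -1.23 with TMM.

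**Figure D4:**
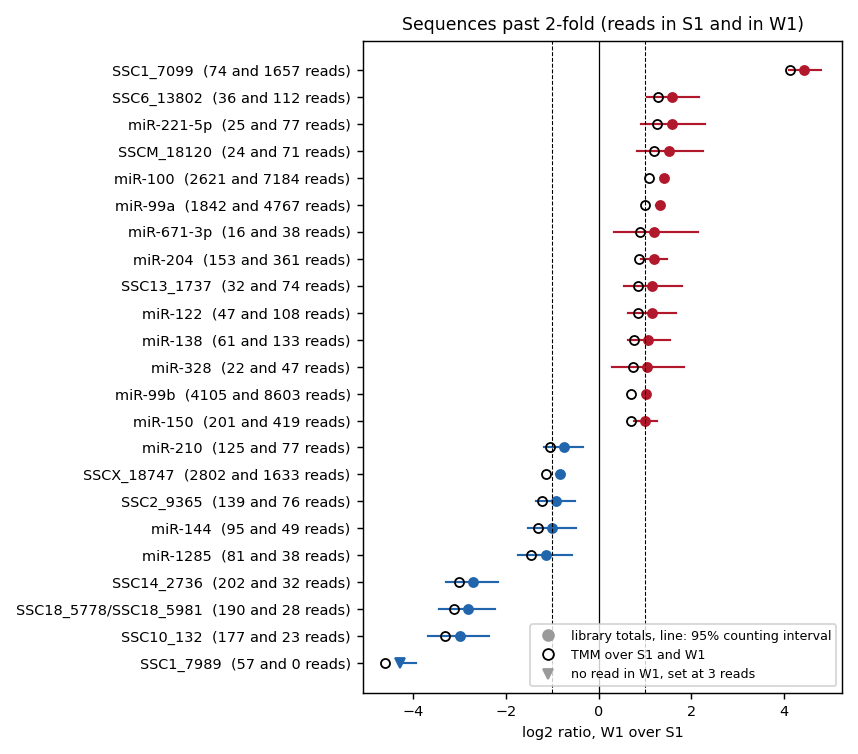
Log2 ratio of W1 to S1 (x axis) of the 23 sequences at least 2-fold higher or lower on library totals or with TMM, with the reads in S1 and W1 beside each name. Filled points and lines give library totals and their 95% counting intervals, open points TMM, and dashed lines 2-fold. With TMM 6 points lie past the upper dashed line and 9 past the lower one.

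The 229 members had 169 seeds, and 34 seeds were shared by 2 or more members (94 sequences). In 3 of the 34 the members spanned more than 1 on the log2 scale, while the quartiles of all members were 0.024 and 0.48. The widest span, 4.45, was that of the seed of SSC1_7099. The others were the seed of miR-378 (CUGGACU, 1.28, from SSCX_18747) and that of miR-92a (AUUGCAC, 1.06, from miR-92b-3p at 0.67 and miR-32 at -0.39). No seed had members past 2-fold in both directions. Among families of near-identical members, such as miR-27a and miR-27b-3p or miR-10a-5p and miR-10b, common reads may hold the values together.

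The leading strand of a precursor was the same in both pools. Of 40 precursors with at least 50 reads of both strands together in each library, 40 kept their leading strand, and in 22 that was 5p. The 5p share of miR-374a was 38.5% in S1 (95% Wilson interval 35.5 to 41.6) and 47.8% in W1 (44.9 to 50.7), the largest difference. Next came miR-708 (60.2% and 67.4%) and miR-374b (68.5% and 75.7%), with intervals that overlapped. For miR-221 the 5p share was 2.18% (1.48 to 3.19) in S1 and 6.01% (4.83 to 7.44) in W1. For miR-17 it was 86.6% (84.3 to 88.6) and 91.4% (89.6 to 93.0). In all, the intervals did not overlap for 9 precursors.

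Since W1 and S1 are 1 pool each, their place among all 6 libraries was examined. On library totals S1 was the lowest of the 6 libraries for 60 members (26.2%) and the highest for 15, and W1 was the lowest for 10 and the highest for 13. S4 was the lowest for 102 and W4 the highest for 162, so on this scale S1 was not the most extreme library. With TMM over the 6 libraries S1 was the lowest for 42 members and the highest for 26, W1 for 39 and 44, S4 the lowest for 34 and W4 the highest for 68. Among the 14 higher sequences S1 was the lowest library for 12 (9 with TMM over the 6 libraries). The exceptions on library totals were miR-99b and SSC13_1737. Among the 6 lower sequences S1 was the highest library for 4. These sequences were chosen by their ratio to S1, which favours a low or a high S1, so these counts are no separate result about S1.

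W1 was above each of S1, S4 and S7 for 13 of the 14 higher sequences, all but miR-328, and for 55.9% of all members. With TMM over the 6 libraries this held for 11 of the 14 and for 33.6% of all members. It was below each of them for 3 of the 6 lower sequences (miR-144, SSC10_132 and SSC14_2736), and for 9.17% of all members, or for 4 of the 6 and 30.1% with TMM over the 6 libraries. Being above or below S1 is part of how these sequences were chosen. The W1 level that entered the choice also enters the order against S4 and S7, so these counts are no separate support. Against S4 in place of S1, 3 of the 14 were still at least 2-fold higher, SSC1_7099, SSC6_13802 and SSC13_1737, and 4 of the 6 at least 2-fold lower, all of them candidates. Against S7, 4 of the 14 were at least 2-fold higher, miR-100, miR-99a, miR-122 and SSC13_1737, and 1 of the 6 lower, miR-144. S4 and S7 piglets were 29 and 32 d old, so age and pool differ together in these comparisons, and all of them share W1.

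**Figure D5:**
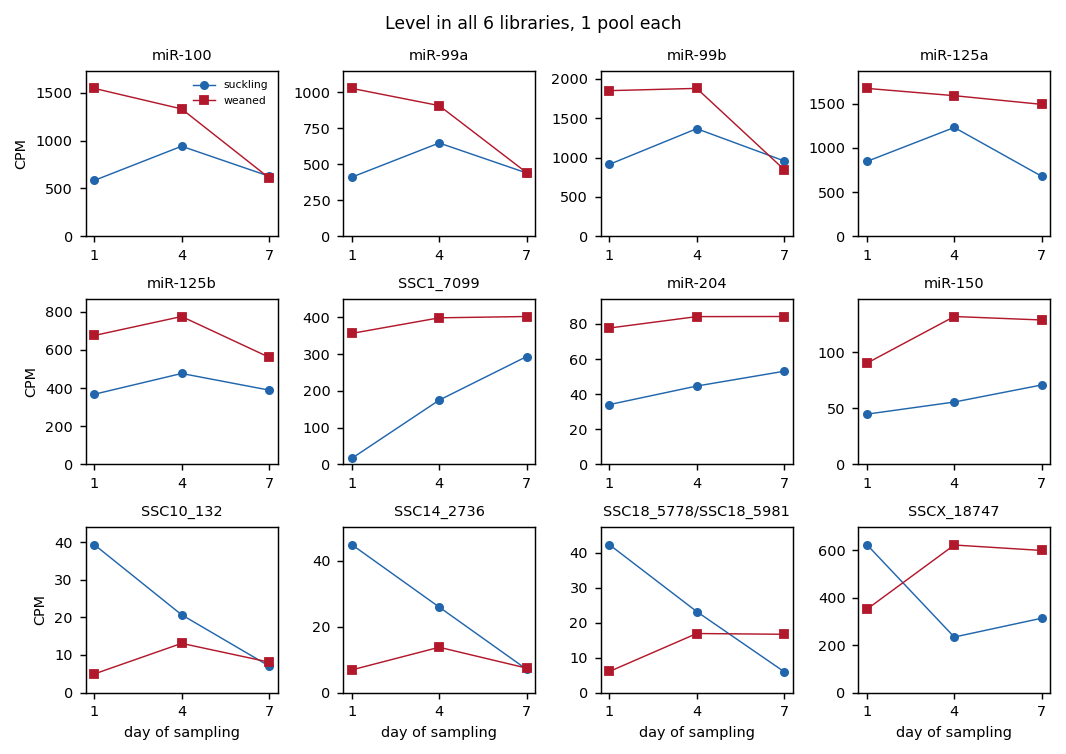
CPM (y axes, each from 0) by day of sampling (x axes) of 12 sequences in the suckling pools (circles) and the weaned pools (squares), 1 pool per point. miR-100 and miR-99a are lowest in S1 and highest in W1, SSC1_7099 is low in S1 alone, and the 3 lower candidates are highest in S1 and close to W1 in S7.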

How the data were processed

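Jejunal small RNA of pooled piglets was sequenced by the authors on a HiSeq2000, cleaned to 15 to 32 nt, mapped without mismatches to the draft pig genome Sscrofa 9.2 (the submitters' processing notes name Bowtie 0.12.2) and compared with miRBase, and miRDeep served for candidates. Per sequence and library, the authors deposited unnormalised read counts without names. For the step from alignments to counts, the method was not given in the sources used here, and some reads may have been counted at more than 1 miRNA.

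A sequence on several rows (54 of 533) was used once, with its highest count. Known names came from the study's table of known miRNAs, by equality of all 6 counts (20 reads or more in sum), and candidate names from identical sequences (1 of 34 by counts). No aligned reads were at hand for 44 known names. Of the other 151, 137 shared at least 15 bases with them and 14, miR-221-5p, miR-17-3p and miR-136 among them, did not. The aligned reads came from a shortened list by precursor, so a failed check does not show a name to be wrong. A near-identical partner (at most 1 mismatch over 17 bases or more) was found for 51 members. RefSeq gene order covered 186 known members.

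Ratios used library totals, and TMM factors of edgeR 4.0.16 (0.898 for S1 and 1.11 for W1). Intervals are exact conditional binomial (Clopper-Pearson) for ratios and Wilson for shares, and their code was tested on simulated data. A count of 0 was set to 3. With 1 pool per group there is no test and no p-value. Scalings (DESeq2 1.42.0 size factors among them), minima, folds and repeated sequences were varied (R 4.3.3, Python 3.11.15, scipy 1.17.1). Named were all sequences past 2-fold, the 10 most read, examples of each list, those with at least 20 reads in 1 library and none in the other, the 3 largest strand differences and 3 on each side of 50 reads. Other names were chosen after their values were seen. One known sequence and what rests on it are not reported here. Members and lists were chosen with earlier results of these data known.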

Additional observations from a re-analysis of the deposited data

Results flagged for a closer look

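SSC18_5778/SSC18_5981 had opposite ratios on 2 days. At day 1 it had 190 reads in S1 and 28 in W1, a log2 ratio of -2.81 on library totals and -3.12 with TMM over S1 and W1. At day 7 it had 32 reads in S7 and 74 in W7, a log2 ratio of 1.48 on library totals and 1.24 with TMM over the 6 libraries. The difference between the days was not tested, since each ratio comes from 1 pool against 1 pool.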

How the results depend on the processing

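The counts past 2-fold depended on the scaling. Against 14 higher and 6 lower on library totals, there were 6 higher and 9 lower with each of TMM over S1 and W1, DESeq2 size factors and a total that leaves out the 3 most read sequences, and 6 higher and 8 lower with TMM over 6 libraries. Under these 4 scalings the median log2 ratio, 0.28 on library totals, was -0.030, -0.00908, 0.011 and 0.050. Clean reads as the scale gave 12 higher and 6 lower. The same 6 higher and the same 6 lower sequences were past 2-fold under all 6 scalings, SSC1_7099, SSC6_13802, SSCM_18120, miR-221-5p, miR-100 and miR-99a on one side and the 6 lower of library totals on the other. Every scaling other than library totals lowered all log2 ratios by a constant. The 6 lower sequences therefore had to stay past 2-fold, and only the higher side could lose members. A minimum of 20 reads gave 22 higher and 8 lower of 278, and a minimum of 100 reads 11 and 5 of 198. Known miRNAs alone gave 10 higher and 2 lower. At 1.5-fold there were 42 higher and 12 lower, and with TMM over S1 and W1, chosen after seeing the data, 15 and 23. Also chosen after seeing the data, W1 against S4 gave 5 higher and 4 lower and W1 against S7 gave 8 and 2, with medians of 0.35 and 0.13. Adding up repeated sequences gave 14 higher and 6 lower of 232. The shifts between scalings were too small to change the sign of any sequence past 2-fold, so kept signs are no separate support. No paired analysis was possible because each group holds 1 library, and for the same reason no library could be left out. With 50 to 99 reads in the pair the counting interval alone had a median width of 1.504 on the log2 scale, and the spread between pools is not known.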
